A study of Rattus norvegicus with 6 samples.

Results

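The integrins, the laminins, the laminin-binding linker nidogen and the laminin receptor dystroglycan were examined in dorsal root ganglia of the rat, which house the cell bodies of the neurons that carry touch and pain from the body. Members were taken by gene symbol: every integrin alpha and beta subunit, laminin chain and nidogen, and Dag1, listed above 0 in at least 3 of the 6 libraries. This gave 29 genes of the 14346 listed in at least 1 library: 12 integrin alpha subunits, 8 integrin beta subunits, the laminin chains, 1 nidogen and dystroglycan. A further 11 symbols that the rule names, among them Lama2, Lama4, Lamb1, Nid1 and Itgav, were not analysed here. The ganglia came from rats 7 days after partial sciatic nerve ligation (pSNL, 3 libraries), in which part of the sciatic nerve is tied so that injured and spared axons run in the same nerve, or 7 days after a sham operation (3 libraries). Strain, sex, age, the ganglia taken and whether each library is a separate animal are not stated in the sources used here, so each p-value refers to variation from library to library, part of which may be technical.

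Laminins are cross-shaped trimers of an alpha, a beta and a gamma chain that polymerise into basement membranes. Nidogen links the laminin sheet to type IV collagen. Cells hold on to it through integrins, each a pair of 1 alpha and 1 beta subunit, and through dystroglycan. In peripheral nerve and ganglion, Schwann cells, satellite glia, perineurial cells and vessels all lie on a basement membrane, and Schwann cells use laminin receptors to sort and myelinate axons; axons in turn grow on laminin by way of integrins of the beta1 class. Another set of integrins, built on Itgb2, is carried by leukocytes. RNA of the whole ganglion was sequenced, so more cells of a type and more RNA per cell cannot be told apart.

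Each library held 4310643 to 4416121 estimated counts, and 11091 genes had enough counts to be tested. As a check of the labels, 7 genes that injured sensory neurons switch on, such as Sprr1a and Atf3, had a summed level of 870, 1633 and 1354 CPM (counts scaled to a common library size with TMM factors) in pSNL replicates 1 to 3, against 307, 361 and 375 CPM in sham replicates 1 to 3. Sham replicate 3 carried central nervous system glia transcripts, at 1977 CPM for a list of 10 genes such as Mobp, Gfap and Aqp4, against 35.0 to 70.5 CPM in the pSNL libraries and 38.3 and 44.0 CPM in the other sham libraries. Skeletal muscle transcripts were at 1388 CPM in pSNL replicate 3 and 706 CPM in sham replicate 3, against 23.6 to 33.5 CPM in the other libraries. Because of its central glia transcripts, results are also given without sham replicate 3. That setting keeps pSNL replicate 3, the library with the highest muscle level, and Itga7 and Dag1 are also expressed in muscle. In the closing section, counts of called genes and the values of Itga7 and Dag1 are therefore given without both replicate 3 libraries.

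No member passed the threshold after nerve ligation, and most of the tested members had a positive fold change of moderate size. Of the 29 members, 21 had enough counts to be tested. None had an adjusted p under 0.05 in edgeR's quasi-likelihood test (Benjamini-Hochberg over all tested genes), where 0.46% of all tested genes did (0.442% higher and 0.018% lower in pSNL). At an unadjusted p under 0.05, 12 members were higher in pSNL and 0 were lower, where 9.41% of all tested genes were higher and 6.07% lower. DESeq2 called 6 members higher (Itgb4, Itga6, Lama5, Lamb2, Itga7 and Itgb1) and 0 lower, where it called 2.17% of the genes with an adjusted p higher and 0.713% lower. The 12 members are Lamb2, Itgb4, Lama5, Itga6, Itgal, Itgb1, Itgb5, Nid2, Itga7, Lamc1, Dag1 and Lamc3. For each of them every pSNL library lay above every sham library, which 11.1% of all tested genes also show, and none of the 21 had every pSNL library below every sham library, which 10.4% show. Their folds ran from 1.22 to 2.46 and their adjusted p from 0.0861 to 0.313 (edgeR). The median log2 fold change of the 21 tested members was 0.46, with 18 positive and 3 negative, against a median of 0.00 and 49.4% positive over all tested genes. Without sham replicate 3 the members' median was 0.36. Itgal and Itgam passed the filter through their pSNL libraries alone, and Itga11 and Itgb6 through their sham libraries alone, so the direction of these 4 was favoured by the filter.

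**Figure D1:**
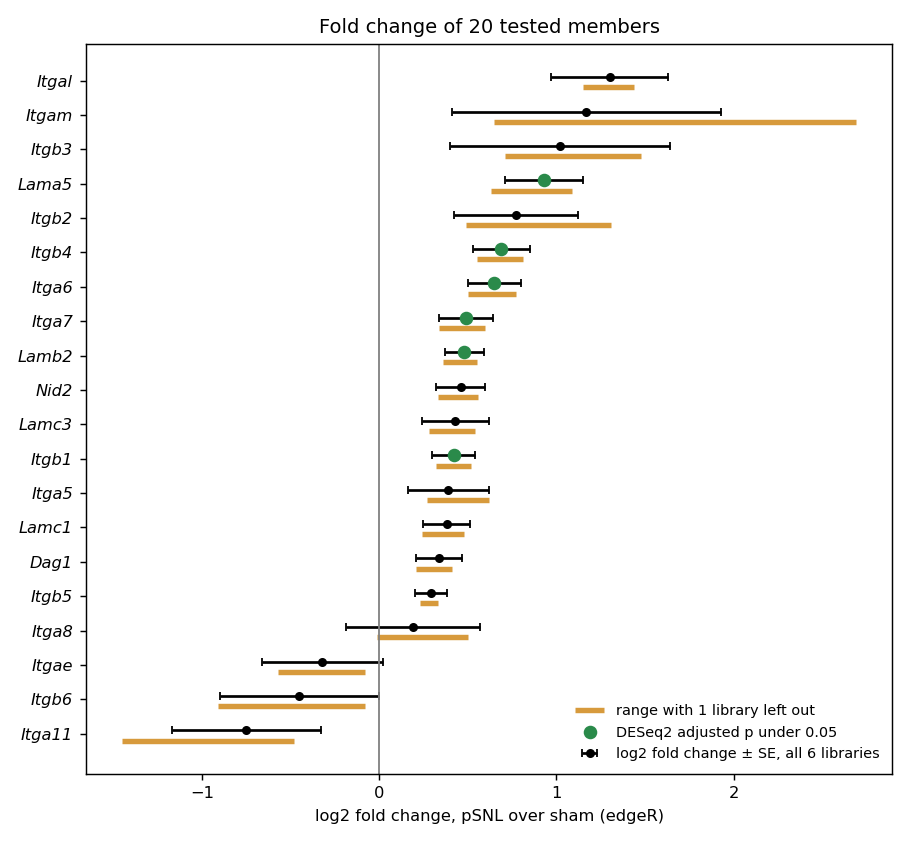
Log2 fold change, pSNL over sham, of 20 of the tested members (edgeR, black bars: standard error), with the range over the 6 fits that leave out 1 library in orange; green points mark the 6 members that DESeq2 called. The 17 positive values shown run up to 1.30 for Itgal, the 3 negative ones down to -0.75 for Itga11, and the orange bar reaches across 0 for Itga8 alone.

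Level per length, as the authors' FPKM (fragments scaled by gene length and library size), shows which members make up the family in the ganglion. Dag1 (gene ID 114489), which encodes dystroglycan, averaged 175 ± 16.1 FPKM in pSNL and 137 ± 21.5 FPKM in sham (SD, n = 3 each). The common beta subunit Itgb1 averaged 168 ± 20.5 FPKM in pSNL and 125 ± 14.2 FPKM in sham. Itga7, a laminin-binding alpha subunit, averaged 135 ± 22.6 FPKM in pSNL and 95.95 ± 14.1 FPKM in sham. Itgb4, which pairs only with the alpha6 subunit and binds laminin, averaged 127 ± 20.1 FPKM in pSNL and 78.5 ± 13.6 FPKM in sham. Within the beta subunits the order Itgb1, Itgb4, Itgb5 held in each of the 6 libraries, and within the alpha subunits Itga7 lay above Itga6 in each. Levels of Dag1 and Itgb1 overlapped within each group, as did those of Itga7 and Itgb4.

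The pair Itga7 and Itga6, both laminin-binding, made up nearly all of the measured alpha subunit level. Itga7 took 70.3 ± 1.45% of the summed FPKM of the 12 alpha subunits in pSNL and 71.8 ± 0.796% in sham, and Itga6 took 24.9 ± 1.39% in pSNL and 22.6 ± 0.889% in sham (SD, n = 3 each). Of the 8 beta subunits, Itgb1 took 48.9 ± 2.63% in pSNL and 52.0 ± 0.788% in sham, and Itgb4 took 37.1 ± 2.57% in pSNL and 32.5 ± 2.22% in sham. Among the laminin chains measured, Lamb2 and Lamc1 stood at 35.4 ± 4.77 and 36.1 ± 2.97 FPKM in pSNL, and at 25.4 ± 1.86 and 27.6 ± 4.50 FPKM in sham. The measured alpha chain Lama5 stood lower, at 5.14 ± 1.67 FPKM in pSNL and 2.68 ± 0.246 FPKM in sham. Since other members of these families, among them Itga3, Itgav, Lama2, Lama4 and Lamb1, were not analysed here, these shares are of the measured members alone.

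**Figure D2:**
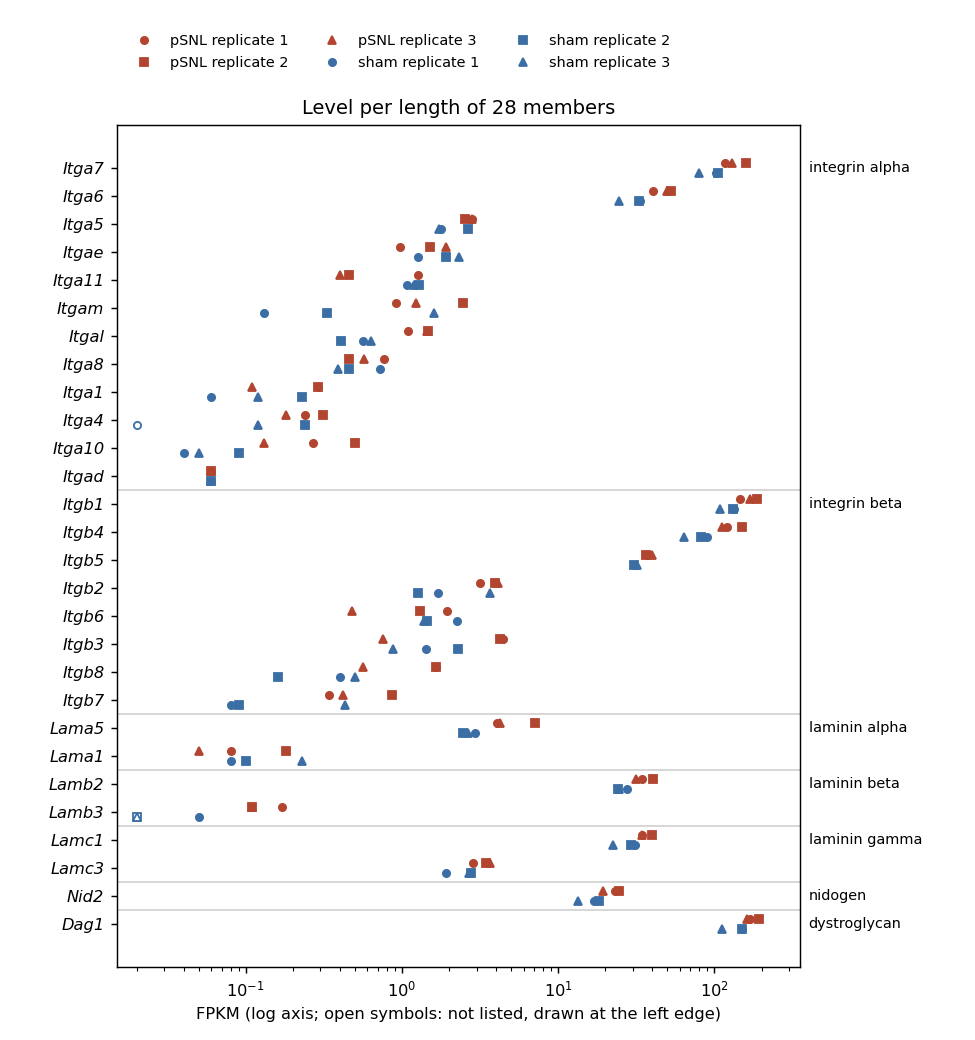
FPKM of 28 members on a log axis, 1 point per library, pSNL in red above sham in blue, ordered by role and by sham level; open symbols at the left edge mark a library in which the gene is not listed. Dag1, Itgb1, Itga7 and Itgb4 lie highest, and Lama1, Lamb3 and Itgad stay at or below 0.23 FPKM in every library.

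Itgb4 and Itga6, the subunits of the integrin alpha6beta4, a laminin receptor of epithelia, perineurium and myelinating Schwann cells, both had every pSNL library above every sham library. Itgb4 (gene ID 25724) was at 711.7, 899.3 and 675.6 CPM in pSNL replicates 1 to 3, against 544.2, 494.4 and 376.2 CPM in sham replicates 1 to 3. The lowest pSNL library stood above the highest sham library, and sham replicate 3 was the lowest of all. The log2 fold change was 0.69 ± 0.16 (SE; edgeR adjusted p = 0.0899), and 0.55 without sham replicate 3. Itga6 (gene ID 114517) was at 241.8, 321.3 and 304.3 CPM in pSNL replicates 1 to 3, against 204.9, 202.4 and 146.6 CPM in sham replicates 1 to 3. Groups did not overlap, with a gap of 204.9 to 241.8 CPM between them. Its log2 fold change was 0.65 ± 0.15 (edgeR adjusted p = 0.101), which was 0.50 without sham replicate 3, and it passed without pSNL replicate 1 (0.77, edgeR adjusted p = 0.0404). Within a library, the ratio of Itga6 to Itga7 (FPKM) was 0.348, 0.330 and 0.383 in pSNL and 0.325, 0.314 and 0.307 in sham. These did not overlap, but pSNL replicate 2 and sham replicate 1 nearly met. The ratio of Itgb4 to Itgb1 was 0.823, 0.800 and 0.660 in pSNL and 0.671, 0.621 and 0.586 in sham, with pSNL replicate 3 below sham replicate 1.

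The other laminin receptors had smaller folds. Itga7 (gene ID 81008) was at 454.1, 636.0 and 519.0 CPM in pSNL replicates 1 to 3, against 412.8, 421.4 and 312.8 CPM in sham replicates 1 to 3. Its pSNL replicate 1 stood close above both higher sham libraries. The log2 fold change was 0.49 ± 0.15 (edgeR adjusted p = 0.182), and 0.36 without sham replicate 3. Itgb1 (gene ID 24511) was at 538.3, 699.8 and 637.1 CPM in pSNL replicates 1 to 3, against 504.5, 495.7 and 399.6 CPM in sham replicates 1 to 3. The gap between the groups was again narrow, with pSNL replicate 1 lowest in its group. The log2 fold change was 0.42 ± 0.12 (edgeR adjusted p = 0.141), and 0.32 without sham replicate 3.

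Dag1 was at 872.5, 1014 and 862.8 CPM in pSNL replicates 1 to 3, against 790.4, 795.2 and 583.2 CPM in sham replicates 1 to 3. Sham replicate 3 stood well below the others, and without it the log2 fold change of 0.34 ± 0.13 became 0.21 (edgeR adjusted p = 0.245 with all libraries and 0.364 without that library). Itgb5 (gene ID 257645), which pairs with the alpha v subunit and binds vitronectin rather than laminin, was at 135.3, 137.3 and 151.6 CPM in pSNL replicates 1 to 3, against 114.4, 115.0 and 117.7 CPM in sham replicates 1 to 3. It was the steadiest of the 12 within sham, and sham replicate 3 was the highest there. Its log2 fold change was 0.29 ± 0.09 (edgeR adjusted p = 0.148), and 0.30 without sham replicate 3.

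**Figure D3:**
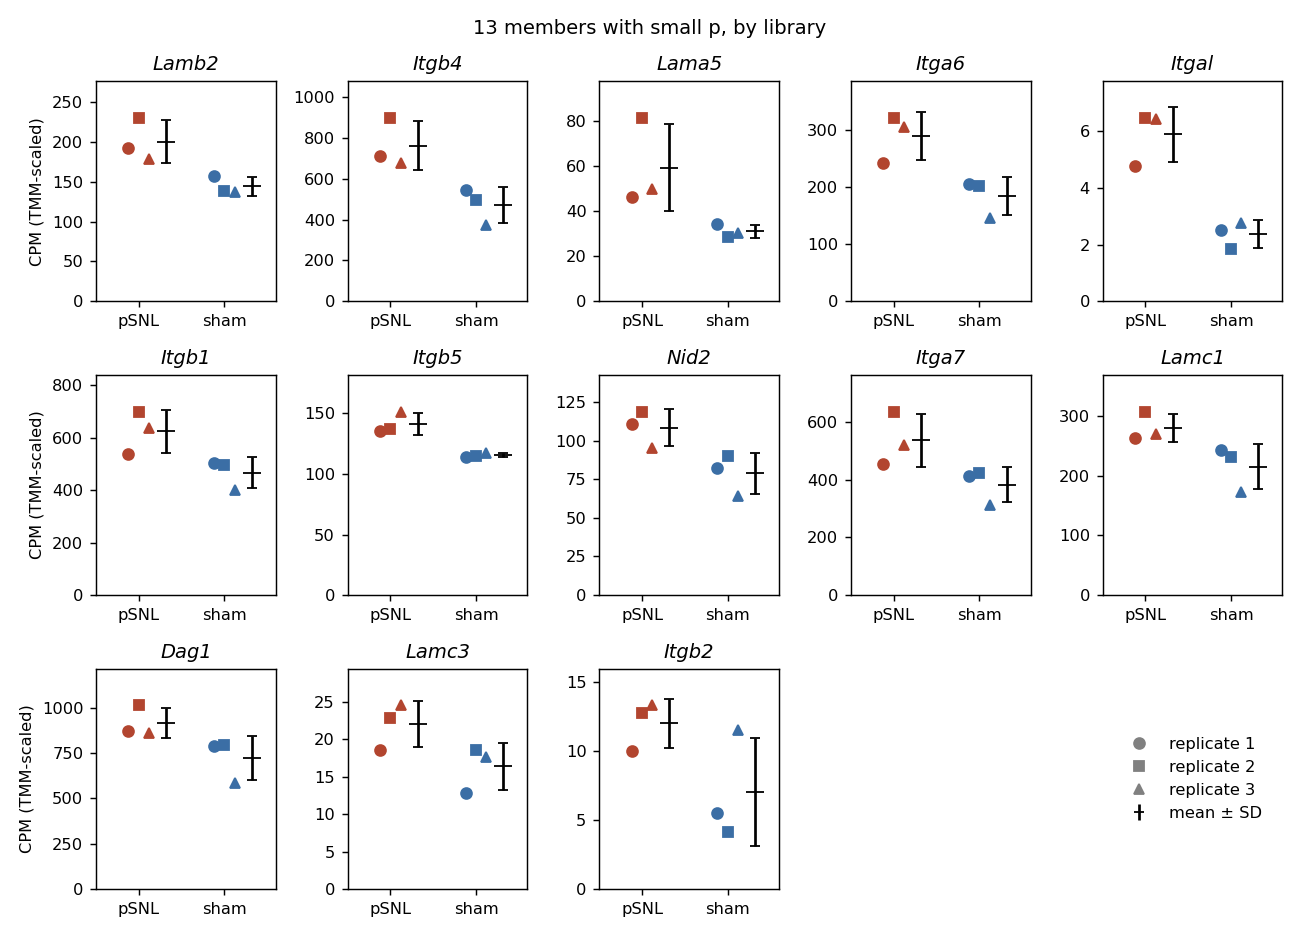
CPM per library of 13 members with small p, pSNL left of sham, with the mean and SD of each group as a black bar and replicate numbers as symbols. For 12 members the groups do not overlap; for Itgb2 sham replicate 3 reaches 11.49 CPM, above pSNL replicate 1 at 9.99 CPM.

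Among the laminin chains, Lama5 (gene ID 140433), the alpha chain of vessel, perineurial and epithelial basement membranes, had the highest fold of the tested laminin chains. It was at 46.31, 81.37 and 49.77 CPM in pSNL replicates 1 to 3, against 34.15, 28.46 and 30.33 CPM in sham replicates 1 to 3. The pSNL group was spread by replicate 2, and the sham libraries lay close together. The log2 fold change was 0.93 ± 0.22 (edgeR adjusted p = 0.0976). It was 0.91 without sham replicate 3, 0.63 without pSNL replicate 2, and passed without pSNL replicate 1 (1.09, edgeR adjusted p = 0.0427). Lamb2 (gene ID 25473), the beta chain known from synaptic and perineurial laminins, had the smallest p of all members. It was at 192.1, 230.5 and 179.1 CPM in pSNL replicates 1 to 3, against 157.5, 137.9 and 137.4 CPM in sham replicates 1 to 3, a log2 fold change of 0.48 ± 0.11 (edgeR adjusted p = 0.0861), and 0.44 without sham replicate 3. All pSNL libraries lay above all sham libraries, and sham replicates 2 and 3 were nearly equal.

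Lamc1 (gene ID 117036), the gamma chain shared by most laminins, was at 263.4, 307.2 and 269.7 CPM in pSNL replicates 1 to 3, against 242.1, 230.4 and 172.4 CPM in sham replicates 1 to 3. Here too sham replicate 3 was lowest, and without it the log2 fold change of 0.38 ± 0.13 (edgeR adjusted p = 0.203) became 0.24. Relative to Lamc1 in the same library (FPKM), Lama5 was at 0.119, 0.179 and 0.124 in pSNL and at 0.0952, 0.0833 and 0.118 in sham, where pSNL replicate 1 and sham replicate 3 nearly met. Lamc3 (gene ID 311862), a gamma chain of lower level, was at 18.62, 22.89 and 24.54 CPM in pSNL replicates 1 to 3, against 12.84, 18.59 and 17.69 CPM in sham replicates 1 to 3. Sham replicate 2 all but met pSNL replicate 1. The log2 fold change of Lamc3 was 0.43 ± 0.19 (edgeR adjusted p = 0.313), and 0.48 without sham replicate 3. The linker Nid2 (nidogen 2, gene ID 302248) was at 110.8, 118.8 and 95.18 CPM in pSNL replicates 1 to 3, against 82.52, 89.74 and 63.88 CPM in sham replicates 1 to 3. Its groups were separate, and its log2 fold change was 0.46 ± 0.14 (edgeR adjusted p = 0.152), and 0.33 without sham replicate 3.

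RefSeq promoter windows of the assembly GRCr8 were at hand for 18 of the 29 members and 5 of the 12. Those of Lama5, Lamc1 and Itgb1 are shown, which belong to laminin chains and to their common receptor subunit. For each of these every pSNL library lay above every sham library. The same holds for the laminin chain Lamc3 and for Itgb5, whose windows are not shown. Each line gives the 250 bases before the annotated start, 5′ to 3′ in the direction of the gene, with matches to the GC box GGGCGG on either strand in capitals.
Lama5 promoter, GRCr8 chr3:187695975-187696224, minus strand: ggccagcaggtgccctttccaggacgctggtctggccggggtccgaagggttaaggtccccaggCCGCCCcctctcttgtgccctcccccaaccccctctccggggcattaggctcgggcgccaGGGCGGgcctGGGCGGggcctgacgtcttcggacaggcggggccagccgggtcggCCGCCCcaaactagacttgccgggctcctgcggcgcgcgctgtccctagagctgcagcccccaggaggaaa
Lamc1 promoter, GRCr8 chr13:68051987-68052236, minus strand: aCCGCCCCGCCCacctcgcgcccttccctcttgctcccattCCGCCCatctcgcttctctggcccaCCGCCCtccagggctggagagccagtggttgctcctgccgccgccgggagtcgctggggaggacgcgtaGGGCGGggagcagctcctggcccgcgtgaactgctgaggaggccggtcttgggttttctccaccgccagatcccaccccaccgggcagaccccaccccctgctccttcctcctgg
Itgb1 promoter, GRCr8 chr19:73602027-73602276, plus strand: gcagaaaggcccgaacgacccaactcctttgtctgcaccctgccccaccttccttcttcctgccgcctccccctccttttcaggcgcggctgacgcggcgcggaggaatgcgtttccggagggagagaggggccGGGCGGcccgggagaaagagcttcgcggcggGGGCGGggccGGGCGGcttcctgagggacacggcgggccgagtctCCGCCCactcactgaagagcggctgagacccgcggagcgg

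These windows were rich in G and C, at 72.8% for Lama5, 71.2% for Lamc1 and 71.2% for Itgb1, where the median of all 33469 promoters was 51.2%. The GC box had 4 matches in Lama5, 5 in Lamc1, where the first and second share a base, and 4 in Itgb1. In the other windows of the 12, it had 1 match in Lamc3 (62.0% G and C) and 0 in Itgb5 (74.4%). It was matched in 8 of the 18 windows, and 30.5% of all promoters held it. The AP-1 motif TGANTCA had 0 matches in the 18 windows of members (6.34% of all promoters), searched on both strands. The TEAD motif GGAATG was matched in 4 of the 18 (12.1% of all promoters), Lamc1, where it overlaps a GC box, and Itgb1 among them. The SOX motif ACAAAG was matched in 3 of the 18 (16.3% of all promoters), Itgb1 among them. The E-box CANNTG was matched in 12 of the 18 (65.5% of all promoters). A match is a run of letters, not a binding site.

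The integrins of leukocytes were at low levels, and none passed the threshold. Itgal (gene ID 308995), the alpha subunit of LFA-1 on lymphocytes and other leukocytes, was at 4.77, 6.47 and 6.42 CPM in pSNL replicates 1 to 3, against 2.52, 1.84 and 2.76 CPM in sham replicates 1 to 3. Groups were separate, with a log2 fold change of 1.30 ± 0.33 (edgeR adjusted p = 0.103), the highest of the tested members with all libraries. Without sham replicate 3 the log2 fold change of Itgal was 1.42. Itgal, like Itgam below, passed the low-count filter through its pSNL libraries alone, which favoured a higher value in pSNL. Markers of T and NK cells, 9 genes, summed to 3.86, 9.48 and 8.94 CPM in pSNL and 2.98, 4.13 and 3.91 CPM in sham, with overlap, and 6 neutrophil markers to 4.82 to 17.9 CPM in pSNL and 4.13 to 10.1 CPM in sham. Itgb2 (gene ID 309684), the beta subunit of all leukocyte integrins of this class, was at 9.99, 12.71 and 13.30 CPM in pSNL replicates 1 to 3, against 5.50, 4.13 and 11.49 CPM in sham replicates 1 to 3. Sham replicate 3 lay within the pSNL range, and without it the log2 fold change of 0.77 ± 0.35 became 1.31 (edgeR adjusted p = 0.332 with all libraries and 0.088 without that library). Itgam (gene ID 25021), the alpha subunit of the complement receptor of macrophages, microglia and neutrophils, showed the same split, with 3.18, 8.55 and 4.36 CPM in pSNL replicates 1 to 3, against 0.46, 1.15 and 5.52 CPM in sham replicates 1 to 3. Its log2 fold change was 1.17 ± 0.76 with all libraries and 2.69 without sham replicate 3, the library with central glia transcripts (edgeR adjusted p = 0.514 and 0.104). Macrophage markers, a list of 18 genes that holds no member, summed to 637, 1143 and 1238 CPM in pSNL and 305, 294 and 429 CPM in sham. Most of each pSNL sum was Cd74 and Lyz2. Every pSNL library lay above every sham library for 8 of the 17 tested markers (11.1% of all tested genes). A positive fold change was found for 15 (49.4% of all tested genes), and Cd163 and Ctss were negative (log2 fold change -0.55 and -0.15). Of 17 tested, 0 were called by edgeR, and 11 were higher at an unadjusted p under 0.05 (9.41% of all tested genes). The part of macrophages in the level of these integrins was not tested.

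The remaining tested integrins did not separate the groups. Itga5, the fibronectin receptor alpha subunit, was at 12.07 ± 0.664 CPM in pSNL and 9.18 ± 2.40 CPM in sham (SD, n = 3 each). Itgb3, the beta subunit of platelets and of vitronectin receptors, was at 10.44, 10.17 and 1.83 CPM in pSNL replicates 1 to 3, against 3.44, 5.51 and 2.07 CPM in sham replicates 1 to 3, so that both replicate 3 libraries were lowest in their group. Itga8, a receptor subunit for nephronectin, lay between 2.77 and 4.54 CPM in pSNL and between 2.30 and 4.36 CPM in sham. Negative values were found for Itga11, a collagen receptor subunit of fibroblasts (log2 fold change -0.75 ± 0.42), Itgb6, an epithelial activator of latent TGF-beta (-0.45 ± 0.45), and Itgae, the alpha subunit of mucosal lymphocytes (-0.32 ± 0.34), with edgeR adjusted p of 0.426, 0.67 and 0.70. Itga11 was at 6.36, 2.31 and 2.06 CPM in pSNL replicates 1 to 3, against 5.50, 6.66 and 5.97 CPM in sham replicates 1 to 3, and pSNL replicate 1 alone lay within the sham range. Without that library its log2 fold change was -1.45 (edgeR adjusted p = 0.103).

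The other 8 members had too few counts to be tested with edgeR. Itgb8, which activates latent TGF-beta together with the alpha v subunit, had 20, 20 and 7 counts in pSNL replicates 1 to 3, against 5, 2 and 6 counts in sham replicates 1 to 3, a ratio of 3.61 over the summed counts (exact 95% counting interval 1.92 to 7.27). DESeq2 did not call Itgb8 (log2 fold change 1.84, DESeq2 adjusted p = 0.245). Itga10, a collagen receptor subunit of cartilage, had 6, 11 and 3 counts in pSNL replicates 1 to 3, against 1, 2 and 1 counts in sham replicates 1 to 3, a ratio of 4.99 (1.67 to 20.1). In both genes pSNL replicate 3 had the fewest counts of its group. Itgb7, the beta subunit of gut-homing lymphocytes, had 19 counts over pSNL and 7 over sham (ratio 2.71, 1.09 to 7.63), and 5 of the sham counts came from replicate 3. Lamb3, a chain of epithelial laminin, had 7 counts over pSNL and 1 over sham (ratio 6.99, 0.898 to 315). The collagen receptor subunit Itga1 had 12 counts in pSNL and 7 in sham, and the leukocyte subunit Itga4 had 12 in pSNL and 6 in sham. Lama1, an alpha chain of embryonic laminin, had 14 counts in pSNL and 20 in sham, and the leukocyte subunit Itgad had 3 in each. The intervals of these 4 and of Lamb3 include a ratio of 1. Such an interval reflects counting error alone, not variation from library to library.

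The machinery through which integrins act on the cytoskeleton held the only called gene among the related lists. Tln1 (talin 1, gene ID 313494), which binds the tail of beta subunits and switches integrins on, rose 1.81-fold, with 291.5, 420.0 and 342.4 CPM in pSNL replicates 1 to 3, against 190.0, 192.6 and 200.2 CPM in sham replicates 1 to 3. The sham libraries lay within a narrow band, far below the lowest pSNL library. Its log2 fold change was 0.85 ± 0.12 (edgeR adjusted p = 0.0212). When single libraries were dropped, Tln1 passed in 1 of 6 fits, that without pSNL replicate 1, and missed the threshold without any other library (log2 fold change 0.70 to 0.98, edgeR adjusted p = 0.00273 to 0.158). Of 28 tested genes of the list, 1 was called higher and 0 lower (0.442% and 0.018% of all tested genes). At an unadjusted p under 0.05, 4 were higher and 0 lower (9.41% and 6.07% of all tested genes). A positive fold change was found for 22 (49.4% of all tested genes), and the median log2 fold change was 0.18. Vinculin (Vcl), which binds talin, was at 168 ± 16.3 CPM in pSNL and 127 ± 10.4 CPM in sham (edgeR adjusted p = 0.102). Itgbl1, an integrin-like secreted protein, was at 22.95 ± 7.38 CPM in pSNL and 12.5 ± 4.44 CPM in sham (edgeR adjusted p = 0.212).

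Of 13 tested basement membrane partners none was called by edgeR (6 were higher and 0 lower at an unadjusted p under 0.05, and DESeq2 called 3), with a median log2 fold change of 0.37. Col4a1, a chain of the type IV collagen network to which nidogen ties laminin, was at 578 ± 60.4 CPM in pSNL and 384 ± 69.2 CPM in sham (edgeR adjusted p = 0.0891). Smoc1, a calcium-binding matrix protein, was at 18.8 ± 5.20 CPM in pSNL and 8.26 ± 2.65 CPM in sham, and Col15a1, a collagen at the outer face of basement membranes, at 248 ± 69.4 CPM in pSNL and 123 ± 28.9 CPM in sham (edgeR adjusted p = 0.0891 and 0.148). Of 24 tested integrin ligands other than laminins, none was called by edgeR (12 were higher and 0 lower at an unadjusted p under 0.05, and DESeq2 called 6), with a median of 0.40. Of all tested genes, 9.41% were higher and 6.07% lower at that p, and DESeq2 called 2.17% higher and 0.713% lower. Fibronectin (Fn1) was at 142 ± 34.8 CPM in pSNL and 71.5 ± 9.59 CPM in sham, thrombospondin 1 (Thbs1) at 10.5 ± 4.53 CPM in pSNL and 2.98 ± 0.998 CPM in sham, and Ltbp1, which anchors latent TGF-beta, at 22.5 ± 8.02 CPM in pSNL and 8.65 ± 2.66 CPM in sham (edgeR adjusted p = 0.0576, 0.082 and 0.082).

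Dystroglycan's partners and the enzymes that attach its laminin-binding sugars held no gene called by edgeR. Of 23 tested, 4 were higher and 2 lower at an unadjusted p under 0.05 (9.41% and 6.07% of all tested genes), and DESeq2 called 2, with a median log2 fold change of 0.10. Drp2 and Prx, which join dystroglycan to the Schwann cell cortex in myelinating cells, were the pair that DESeq2 called. Drp2 was at 83.7 ± 23.2 CPM in pSNL and 44.1 ± 9.71 CPM in sham, and Prx (periaxin) at 1643 ± 252 CPM in pSNL and 994.8 ± 236 CPM in sham (edgeR adjusted p = 0.128 and 0.131). Pomgnt2, an enzyme of the sugar chain, was at 48.5 ± 5.91 CPM in pSNL and 61.6 ± 8.03 CPM in sham (edgeR adjusted p = 0.25). Prx and the ligand collagens Col1a1, Col1a2 and Col3a1 are also among the cell type markers.

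**Figure D4:**
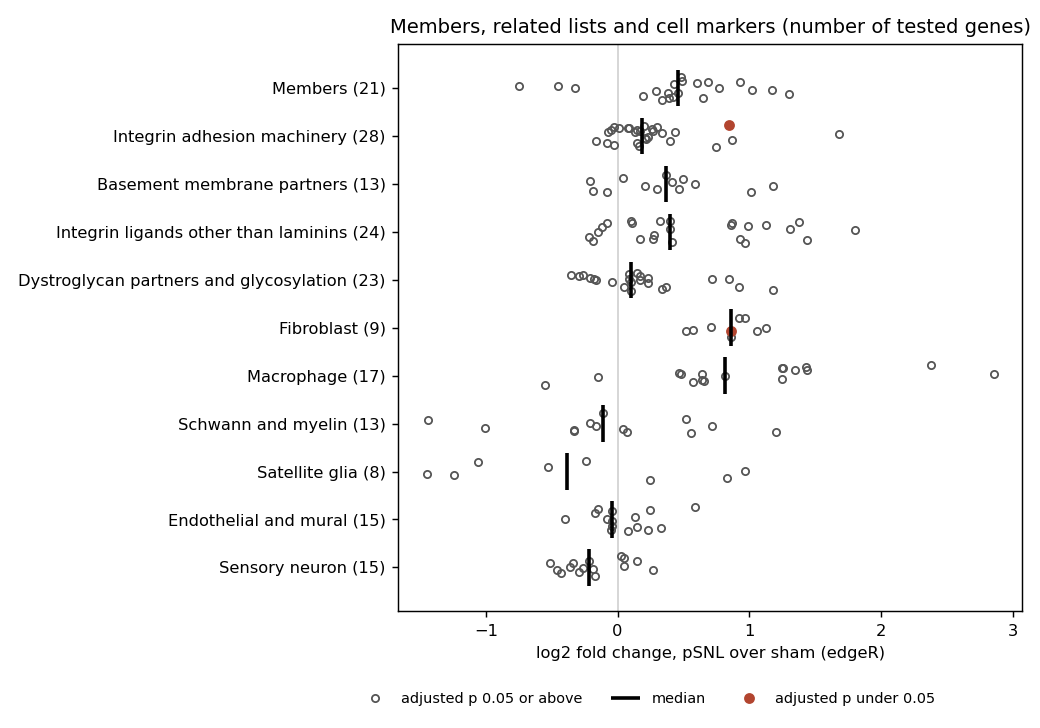
Log2 fold change, pSNL over sham, of the tested members, related lists and cell type markers (edgeR), with the median of each as a black bar and called genes in red. The members' median of 0.46 lies near those of basement membrane partners (0.37) and other integrin ligands (0.40), below those of fibroblast (0.86) and macrophage markers (0.82), and above that of Schwann and myelin markers (-0.11, and 0.24 without sham replicate 3).

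Cell type markers moved beside these genes. Fibroblast markers summed to 4252, 7011 and 4940 CPM in pSNL replicates 1 to 3 and to 3824, 2643 and 1754 CPM in sham replicates 1 to 3, with 1 of 9 tested called (Mgp). Their lowest sham library was replicate 3 and their highest pSNL library was replicate 2, but most of each sum was Col1a1, Col1a2 and Col3a1. Within sham, Pdgfra and Pi16 were highest in replicate 3, at 25.51 and 5.06 CPM, and the other genes of the list were lowest there. Of the 12 higher members, 8 had their lowest sham value in replicate 3 and 10 their highest pSNL value in replicate 2. The share of all tested genes with these extremes was not computed, so these counts have no background. Sham replicate 3, the library with central glia transcripts, was at one end of the sham range in each of the lists for Schwann cells, vessels and sensory neurons. Schwann cell and myelin markers summed to 23527, 27482 and 35136 CPM in pSNL replicates 1 to 3, against 24322, 21728 and 30381 CPM in sham replicates 1 to 3. The median log2 fold change of the 13 tested was -0.11, and 0.24 without sham replicate 3. Endothelial and mural markers summed to 441, 417 and 420 CPM in pSNL replicates 1 to 3, against 372, 396 and 477 CPM in sham replicates 1 to 3, so that without sham replicate 3 every pSNL library lay higher (median log2 fold change -0.04, and 0.16 without that library). Sensory neuron markers, with most of each sum from Nefl, Nefm and Nefh, summed to 49811, 45661 and 47150 CPM in pSNL replicates 1 to 3, against 57535, 59470 and 47176 CPM in sham replicates 1 to 3. Every pSNL library but the first lay below every sham library, and without sham replicate 3 all of them did (median -0.22, and -0.33 without that library). Of the 15 sensory neuron genes tested, 1 was higher and 5 were lower at an unadjusted p under 0.05 (9.41% and 6.07% of all tested genes), and none was called by edgeR. Satellite glia markers summed to 5068 to 6169 CPM in pSNL and 6392 to 6833 CPM in sham, but most of each sum was Apoe, at 4421 to 5570 CPM in pSNL and 5306 to 6243 CPM in sham, with overlap. The other satellite glia genes had no common direction. Glul, Gja1 and Slc1a3 were highest in sham replicate 3, the library with central glia transcripts, at 949.1, 238.5 and 99.04 CPM. In sham replicates 1 and 2, Glul was at 441.9 and 425.3 CPM, Gja1 at 40.11 and 50.49 CPM and Slc1a3 at 20.4 and 12.39 CPM. The part of central glia in these values was not tested. Fabp7 was lower in every pSNL library (log2 fold change -1.24, edgeR adjusted p = 0.138) and Cdh19 was higher in every pSNL library (0.83, edgeR adjusted p = 0.179), and the median of the 8 was -0.39, and 0.09 without sham replicate 3. Platelet markers, for the subunit Itgb3, summed to 4.09 to 56.2 CPM in pSNL and 7.34 to 20.7 CPM in sham. The part of these cells in the members' levels was not tested.

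**Figure D5:**
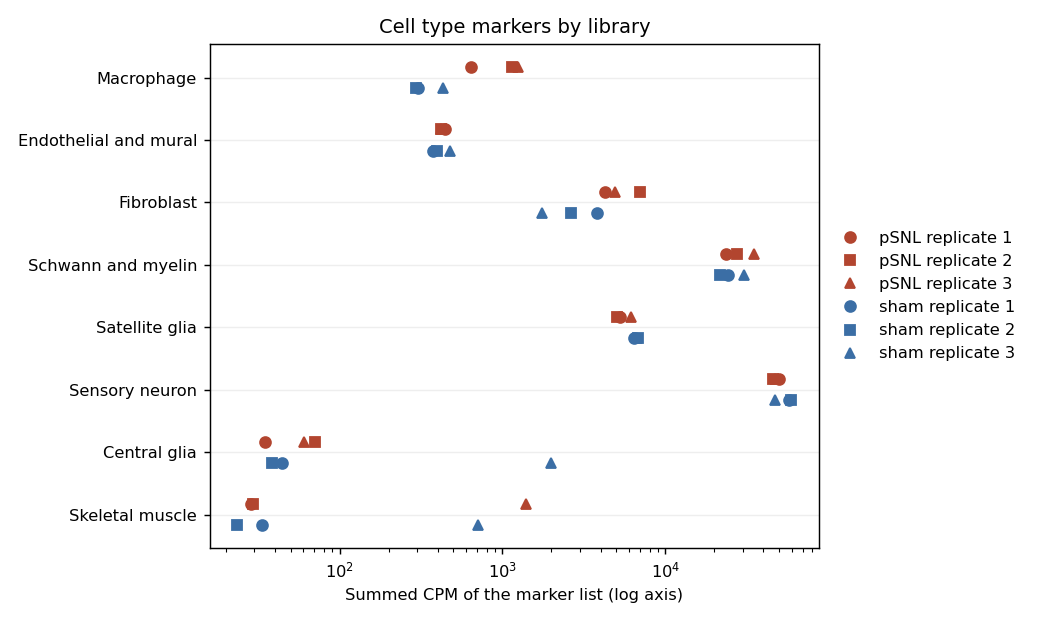
Summed CPM of 8 marker lists by library on a log axis, pSNL in red above sham in blue. Fibroblast and macrophage sums lie higher in every pSNL library. The fibroblast sums are mostly Col1a1, Col1a2 and Col3a1, and the pSNL macrophage sums mostly Cd74 and Lyz2. Satellite glia sums, which are mostly Apoe, lie lower. Sham replicate 3 stands at 1977 CPM for central glia, and both replicate 3 libraries stand apart for skeletal muscle.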

How the data were processed

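Per the file headers, every deposited file covers 1 library and lists expected counts, FPKM and gene lengths. The authors' expected counts are estimates and not all whole. The FPKM values were deposited by the authors. CASAVA 1.4 and Bowtie2 are named in the submitters' processing notes. Not given in the sources used here are the quantifier, genome build, annotation and strand setting, so reads of overlapping or antisense genes cannot be told apart. Genes absent from a file were taken as 0. Symbols came from a RefSeq gene table of GRCr8, whose coordinates serve the promoters alone (14227 genes matched by gene ID and 16 by accession).

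Expected counts were rounded and fitted with edgeR 4.0.16 in R 4.3.3 (TMM factors, filterByExpr with a minimum count of 10, robust quasi-likelihood F test, Benjamini-Hochberg over 11091 genes, threshold 0.05), with no covariate. Standard errors were derived from the F statistic. Alternatives were DESeq2 1.42.0, limma 3.58.1 on log2 FPKM with a pseudocount of 0.1 or 1, RLE or no scaling factors, no filter, a replicate block, and each library left out. Since 1 CPM stood for 4.31 to 4.42 counts, low genes rest on few counts.

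The members, lists and tests were chosen with earlier results of these data known. Values per library are given for 13 of the 14 members with the smallest p (1 member is counted but not reported here) and the member with the highest FPKM of each role, and for other members chosen after their values were seen, as were the ratios between members. Of each related list, called genes and the 3 with the smallest p are named.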

Additional observations from a re-analysis of the deposited data

How the results depend on the processing

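Over the 21 tested members, 284 of 294 alternative log2 fold changes kept their direction and their side of the threshold, 9 newly passed it, and 1 reversed. The reversal was Itga8, at -0.008 without pSNL replicate 1 (main value 0.19, leave-one-out range -0.008 to 0.502). Over all tested genes the count of 51 became 89 with no filter on low counts, 332 with DESeq2, 111 with the replicate block, 102 without both replicate 3 libraries, and 5 to 217 with 1 library left out. Members called higher, 0 of 21, became 6 with DESeq2, 1 with the replicate block (Itgb4, edgeR adjusted p = 0.0346) and 0 to 2 with 1 library left out. Members called lower stayed at 0 in all these settings. Genes called of the related lists, 1, became 12 with DESeq2, 6 with the replicate block, 3 without both replicate 3 libraries and 0 to 5 with 1 library left out. Tln1 was not called without both replicate 3 libraries. In that setting the log2 fold change was 0.38 for Itga7 and 0.25 for Dag1 (edgeR adjusted p = 0.259 and 0.216). The 12 members higher at an unadjusted p under 0.05 numbered 9 to 15 across alternatives, with 9 without pSNL replicate 2, and those without overlap 12 to 15. The alternatives to these 2 counts, and leaving out both replicate 3 libraries, were chosen after seeing the data. The causes were not tested. Deviations from the group means correlated at 0.032, 0.011 and 0.124 for same-numbered libraries, and at -0.105 to 0.104 for the others. Not every library correlated best with its own number. With 3 libraries per group, these values cannot decide whether same-numbered libraries were paired or shared a batch. At this depth the 8 untested members allow only wide intervals.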
